A study of Mus musculus with 13 samples.

Results

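Gad1, Gad2, Slc32a1, Dlx1 and Dlx2 are 5 of the 13549 genes in a table of RNA read counts from cultured mouse oligodendrocyte-lineage cells. The filter on low counts removed 0 genes of the table, so passing it says nothing about these 5. They were taken from the table by symbol. They had been selected on their higher values without Eed in these same libraries, so their differences between Eed cKO and control cells are described here without a test. Gad1, Gad2 and Slc32a1 encode the enzymes that make the transmitter GABA and the transporter that loads it into vesicles. Dlx1 and Dlx2 encode transcription factors of the GABA neuron lineage.

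The study compared cells with and without Eed at 2 stages, as immature oligodendrocytes (iOLs) and as their precursors (OPCs). The 4 groups all came from C57BL/6 mouse brain. Eed cKO iOLs (2 libraries) and control iOLs (2 libraries) came from OPCs of postnatal day 6 kept for 2 days without PDGF and with the thyroid hormone T3. Eed cKO OPCs (3 libraries, of postnatal day 7, 7 and 6) and control OPCs (2 libraries, of day 7 and 6) were grown with PDGF and NT-3. cKO stands for conditional knockout. The labels name neither a Cre driver nor the control alleles, and their genotype entry is the same for both genotypes, so genotypes were read from the sample titles. Whether replicates were separate animals or cultures is not stated, so a p-value here covers only the spread among these libraries, which may be technical.

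GABA is the main inhibitory transmitter of the brain. Gad1 and Gad2 encode GAD67 and GAD65, the enzymes that make it from glutamate, and Slc32a1 encodes VGAT, which carries it into synaptic vesicles. Gad1 is also expressed outside neurons, and OPCs are known to hold some of this machinery. In the embryonic mouse forebrain, Dlx1 and Dlx2 direct ventral progenitors to GABA neurons and act against the oligodendrocyte fate. Eed is a core subunit of PRC2, the complex that methylates lysine 27 of histone H3 and keeps developmental genes silent, often at start sites rich in CG dinucleotides.

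The start sites of Gad2, Slc32a1 and Dlx2 are shown because these genes had the highest fold changes of the 5 in Eed cKO OPCs. Each window runs from 250 bases before to 50 bases after 1 RefSeq start of the gene (GRCm38.p6), is printed on the strand of the gene, and carries its CG dinucleotides in capitals. They lie at chr2:22622077-22622376 (Gad2, plus strand), chr2:158610508-158610807 (Slc32a1, plus strand) and chr2:71546705-71547004 (Dlx2, minus strand). RefSeq's gene span reaches further upstream than the start used for 4 of the 5 genes, by 0.826 kb for Gad1, 1.31 kb for Gad2, 1.33 kb for Dlx1 and 3.50 kb for Slc32a1. Other starts of these genes are therefore not covered.
Gad2: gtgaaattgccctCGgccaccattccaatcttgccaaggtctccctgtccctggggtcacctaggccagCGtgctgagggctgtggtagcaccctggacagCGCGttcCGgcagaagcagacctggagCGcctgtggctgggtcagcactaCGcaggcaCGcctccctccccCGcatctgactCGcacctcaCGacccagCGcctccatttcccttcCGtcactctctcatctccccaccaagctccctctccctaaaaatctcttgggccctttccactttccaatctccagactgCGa
Slc32a1: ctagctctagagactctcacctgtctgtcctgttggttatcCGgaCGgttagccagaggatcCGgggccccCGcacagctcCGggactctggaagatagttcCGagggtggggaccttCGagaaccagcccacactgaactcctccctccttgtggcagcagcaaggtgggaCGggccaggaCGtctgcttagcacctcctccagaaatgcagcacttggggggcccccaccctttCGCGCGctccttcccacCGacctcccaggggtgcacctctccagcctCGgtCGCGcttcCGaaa
Dlx2: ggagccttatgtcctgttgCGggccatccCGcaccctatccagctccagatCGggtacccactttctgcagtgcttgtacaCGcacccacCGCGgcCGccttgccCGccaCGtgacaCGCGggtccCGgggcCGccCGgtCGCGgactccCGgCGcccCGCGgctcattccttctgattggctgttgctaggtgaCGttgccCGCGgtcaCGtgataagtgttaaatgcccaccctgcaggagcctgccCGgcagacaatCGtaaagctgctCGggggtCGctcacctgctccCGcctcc

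Gad2 held 14 CG dinucleotides in this window, Slc32a1 17, Gad1 21, Dlx1 27 and Dlx2 29. The median over 32851 windows of the same length was 7, with quartiles of 3 and 20. All 5 were above that median, and Gad1, Dlx1 and Dlx2 were above the upper quartile. These windows cover 27025 RefSeq genes, and none were taken over the genes of the count table alone. The homeodomain core TAATT, searched on both strands (AATTA on the other), was in none of the 5 windows and in 27.0% of all windows. These are descriptions of letters, and no match says only that these letters are not in this window.

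Library totals were 17417529 to 19680398 counts. Levels are given in CPM, counts scaled for library size and composition by the TMM method. A gene was called at a Benjamini-Hochberg adjusted p under 0.05 in edgeR's quasi-likelihood test over all genes. Log2 fold changes written with ± carry a standard error (SE), derived from the fold change and the F statistic of that test. Levels are not per length, so they are compared between groups and not between genes. The labelled target, Eed, had 14.6 and 12.1 CPM in Eed cKO iOLs against 18.0 and 21.2 CPM in control iOLs, and 13.3, 11.8 and 12.5 CPM in Eed cKO OPCs against 21.7 and 16.8 CPM in control OPCs. It was lower in every Eed cKO library but did not pass in iOLs (adjusted p = 0.0973) or OPCs (adjusted p = 0.0847), and the counts do not show which exons were deleted. The 2 control OPC libraries stood apart from each other, with a chi-square per degree of freedom of 106 over all genes. It was 47.3 and 47.4 between Eed cKO OPC replicate 3 and the other 2, and 6.48 to 13.3 in the remaining replicate pairs. The pairs with the high values were those of different postnatal days, and the remaining pairs were each of the same day. All 13 OPC markers were in the table, and they summed to 9353 to 9841 CPM in Eed cKO iOLs, 13651 to 14801 in control iOLs, 21629 to 22218 in Eed cKO OPCs and 20016 to 24201 in control OPCs. So were 12 of 13 oligodendrocyte markers and 1 of 9 microglia markers. In bulk RNA, fewer cells of a type and less RNA per cell cannot be told apart.

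In iOLs and in OPCs, each of the 5 genes had all its Eed cKO libraries above all control libraries of that stage. Over all 13549 genes, 7.08% were called higher and 3.51% lower in Eed cKO iOLs, and 2.94% higher and 0.303% lower in Eed cKO OPCs. Since the 5 were selected on these comparisons, nothing is read from their count. The sizes differed between genes and stages.

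Gad1 had 37.9 and 37.0 CPM in Eed cKO iOLs, against 26 and 31.1 CPM in control iOLs. In OPCs it had 81.5, 82.7 and 53.1 CPM in Eed cKO libraries, against 50.3 and 44.3 CPM in control libraries. The groups did not overlap at either stage, and the lowest Eed cKO OPC library was close to the highest control. The log2 fold change was 0.39 ± 0.21 in iOLs and 0.62 ± 0.19 (1.53-fold) in OPCs. Gad1 thus had the smallest fold change of the 5 in OPCs.

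Gad2 had 10.3 and 11.8 CPM in Eed cKO iOLs, against 5.40 and 5.66 CPM in control iOLs. Eed cKO OPCs had 25.9, 24.4 and 19.4 CPM, against 4.10 and 3.84 CPM in control OPCs. Replicates lay close together in all 4 groups and the groups were far apart. Its log2 fold change was 1.0 ± 0.19 (2.0-fold) in iOLs and 2.55 ± 0.19 (5.85-fold) in OPCs.

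Slc32a1 had 9.90 and 10.6 CPM in Eed cKO iOLs, against 7.38 and 8.49 CPM in control iOLs. In OPCs it had 16.8, 16 and 14.6 CPM in Eed cKO libraries, against 4.22 and 1.74 CPM in control libraries. The Eed cKO OPC libraries were alike, while the 2 control OPC libraries differed from each other by more than those 3 did on the log scale. On the log2 scale the fold change was 0.37 ± 0.30 in iOLs and 2.41 ± 0.31 (5.33-fold) in OPCs. In OPCs it was 3.18 without control replicate 1 and 1.90 without control replicate 2.

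Dlx1 had 8.99 and 4.76 CPM in Eed cKO iOLs, against 1.87 and 1.83 CPM in control iOLs. Levels in OPCs were 3.09, 2.75 and 2.84 CPM without Eed, against 1.23 and 1.32 CPM in controls. The 2 Eed cKO iOL libraries were wide apart and the other groups were tight. Eed cKO over control was at log2 1.89 ± 0.33 (3.70-fold) in iOLs and 1.18 ± 0.32 (2.26-fold) in OPCs. In iOLs it was 1.36 without Eed cKO replicate 1. Control OPCs held 46 Dlx1 counts in all, and the exact 95% counting interval of the OPC ratio was 1.63 to 3.22.

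Dlx2 had 10.1 and 6.40 CPM in Eed cKO iOLs, against 3.12 and 1.72 CPM in control iOLs. Eed cKO OPCs had 6.08, 3.61 and 2.89 CPM, against 0.469 and 1.05 CPM in control OPCs. The Eed cKO OPC libraries were further apart in proportion than for the other 4 genes, and the groups still did not overlap. As log2 fold changes these are 1.77 ± 0.46 (3.40-fold) in iOLs and 2.43 ± 0.50 (5.40-fold) in OPCs. Control OPCs held 28 Dlx2 counts in all, 8 and 20 by library, and the exact 95% counting interval of the OPC ratio was 3.62 to 8.26. These intervals for Dlx1 and Dlx2 pool the libraries of a group and cover counting error only. They leave out the spread between libraries and are no test of the selected difference. In OPCs the log2 fold change was 3.14 without control replicate 2.

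**Figure D1:**
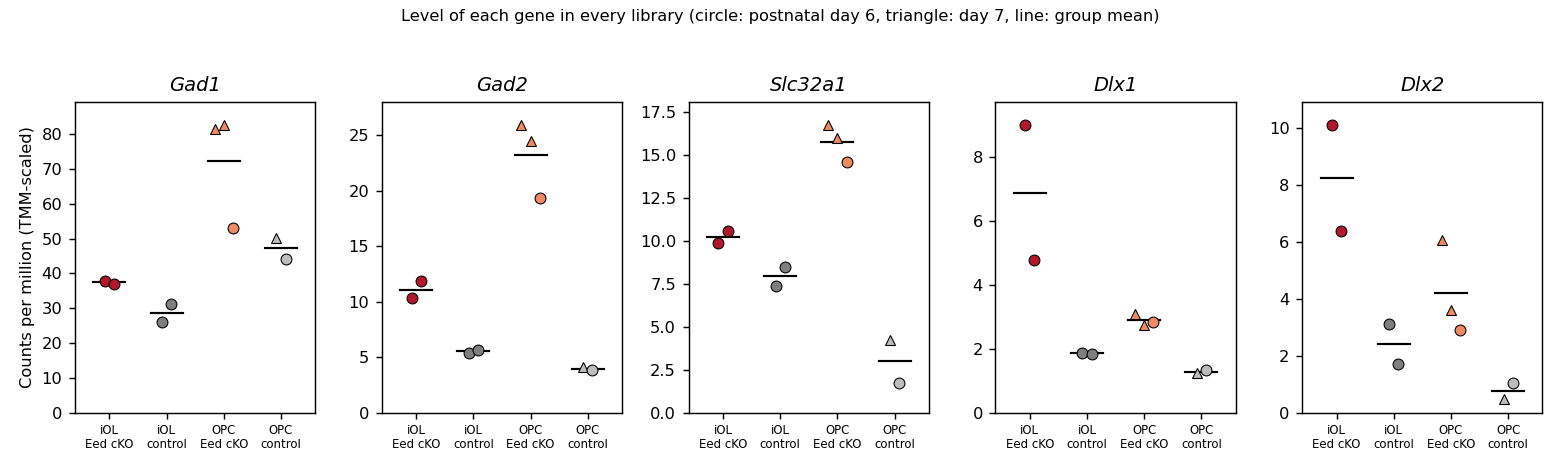
Level of each gene in CPM (vertical axis, linear and from 0) in the 9 libraries, by group, with the group mean as a line and postnatal day as the symbol. For all 5 genes the Eed cKO points lie above the control points of the same stage; Gad1, Gad2 and Slc32a1 are highest in Eed cKO OPCs, and Dlx1 and Dlx2 in Eed cKO iOLs.

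**Figure D2:**
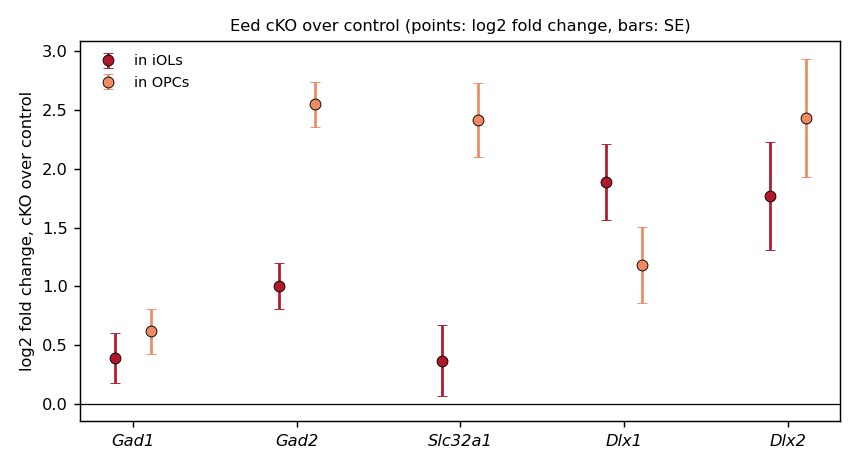
The log2 fold change of Eed cKO over control cells (vertical axis) for each gene in iOLs and in OPCs, with SE as bars. Gad2 was at 1.0 in iOLs and 2.55 in OPCs, and Slc32a1 at 0.37 and 2.41, while Dlx1 was at 1.89 in iOLs and 1.18 in OPCs.

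Ordered by group mean, the 3 GABA genes and the 2 Dlx genes ran differently. Gad1 averaged 72.4 ± 16.8 CPM in Eed cKO OPCs (SD, n = 3), 47.3 ± 4.24 in control OPCs, 37.5 ± 0.655 in Eed cKO iOLs and 28.6 ± 3.63 in control iOLs (SD, n = 2 each). Gad2 averaged 23.2 ± 3.45 CPM in Eed cKO OPCs (SD, n = 3), 11.1 ± 1.08 in Eed cKO iOLs, 5.53 ± 0.189 in control iOLs and 3.97 ± 0.182 in control OPCs (SD, n = 2 each). Slc32a1 had the same order as Gad2, with 15.8 ± 1.09 CPM in Eed cKO OPCs (SD, n = 3), 10.2 ± 0.479 in Eed cKO iOLs, 7.94 ± 0.786 in control iOLs and 2.98 ± 1.75 in control OPCs (SD, n = 2 each). Neighbouring groups in these orders did not overlap. Dlx1 averaged 6.88 ± 2.99 CPM in Eed cKO iOLs (SD, n = 2), 2.89 ± 0.179 in Eed cKO OPCs (SD, n = 3), and 1.85 ± 0.0298 in control iOLs and 1.27 ± 0.0607 in control OPCs (SD, n = 2 each), again without overlap. Dlx2 averaged 8.25 ± 2.62 CPM in Eed cKO iOLs (SD, n = 2), 4.19 ± 1.67 in Eed cKO OPCs (SD, n = 3), and 2.42 ± 0.992 in control iOLs and 0.761 ± 0.413 in control OPCs (SD, n = 2 each). Here the Eed cKO OPC and control iOL libraries overlapped.

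The proportions between the 3 GABA genes are given as counts per 100 Gad1 counts. There were 27.2 and 32.0 Gad2 counts in Eed cKO iOLs, against 20.7 and 18.2 in control iOLs. In OPCs there were 31.8, 29.6 and 36.5 in Eed cKO libraries, against 8.16 and 8.68 in control libraries. Slc32a1 counts per 100 Gad1 counts were 26.1 and 28.6 in Eed cKO iOLs and 28.4 and 27.3 in control iOLs. They were 20.6, 19.3 and 27.5 in Eed cKO OPCs, against 8.39 and 3.92 in control OPCs. Control OPCs were lowest in both proportions, and the Slc32a1 proportion overlapped between genotypes in iOLs. These counts are not per length, so they show shifts between groups and not which gene is higher. Being made of the selected values, they carry no test.

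OPC libraries came from 2 postnatal days, so the difference was also taken within each day, with 1 control library on each. At day 7 the log2 difference between Eed cKO and control OPCs was 0.71 for Gad1, 2.59 for Gad2, 1.93 for Slc32a1, 1.18 for Dlx1 and 3.05 for Dlx2. At day 6 it was 0.26 for Gad1, 2.30 for Gad2, 2.99 for Slc32a1, 1.05 for Dlx1 and 1.37 for Dlx2. All 5 were higher without Eed on both days, Gad1 least on each. As the OPC groups did not overlap, the sign on each day was fixed in advance and adds no support. The day-6 values rest on 1 library a side. Astrocyte markers moved with the day, with sums of 3611 and 3816 CPM in Eed cKO and 4493 CPM in control OPCs of day 7, and 8753 CPM in Eed cKO and 11273 CPM in control OPCs of day 6. Oligodendrocyte markers summed to 2586 and 3408 CPM in Eed cKO and 7402 CPM in control OPCs of day 7, and 1399 CPM in Eed cKO and 2703 CPM in control OPCs of day 6, lower on day 6 within each genotype. Their part in the values of the 5 genes was not tested.

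The change over differentiation was not itself used to select the genes and was tested, but it shares their libraries. Selecting on OPC values leans the change down in Eed cKO cells and up in control cells, and selecting on iOL values the reverse. The adjusted p-values below do not allow for this. From OPCs to iOLs, Gad1 was lower in both genotypes, Dlx1 and Dlx2 were higher in both, and Gad2 and Slc32a1 were higher in control cells and lower in Eed cKO cells. In Eed cKO cells 2 of the 5 passed as lower and 1 as higher, beside 21.8% of all genes called lower and 18.5% called higher. In control cells 1 passed as lower and 2 as higher, beside 25.3% called lower and 21% called higher. With shares of that size over all genes, the counts of 1 and 2 are not a result about these genes, and the values are given gene by gene.

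Gad1 fell in Eed cKO cells (log2 −0.95 ± 0.20, adjusted p = 0.0043) and in control cells (−0.73 ± 0.21, adjusted p = 0.0201). The call in control cells was lost without control iOL replicate 1 (adjusted p = 0.132) or control OPC replicate 1 (adjusted p = 0.0768). Gad2 fell in Eed cKO cells (−1.07 ± 0.17, adjusted p = 0.00114), with 10.3 and 11.8 CPM in iOLs against 19.4 to 25.9 CPM in OPCs. In control cells Gad2 was at 0.48 ± 0.20 and did not pass (adjusted p = 0.0825), although both iOL libraries were above both OPC libraries; without Eed cKO OPC replicate 3 it passed (adjusted p = 0.04).

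Slc32a1 rose in control cells (log2 1.42 ± 0.33, adjusted p = 0.00672), with 7.38 and 8.49 CPM in iOLs against 4.22 and 1.74 CPM in OPCs. In Eed cKO cells it was at −0.62 ± 0.28 and did not pass (adjusted p = 0.101), with every iOL library below every OPC library. It passed there without control OPC replicate 1 (adjusted p = 0.00639) or 2 (adjusted p = 0.00636). Dlx1 rose in Eed cKO cells (1.25 ± 0.28, adjusted p = 0.00627) and was at 0.54 ± 0.36 in control cells (adjusted p = 0.247). Without Eed cKO iOL replicate 1 the Eed cKO call was lost (adjusted p = 0.111). Dlx2 was at 0.98 ± 0.39 in Eed cKO cells and did not pass (adjusted p = 0.0765), and it rose in control cells (1.64 ± 0.55, adjusted p = 0.0344). Its control call was lost without control iOL replicate 1 (adjusted p = 0.208) or control OPC replicate 1 (adjusted p = 0.167), and its Eed cKO value passed without Eed cKO OPC replicate 1 (adjusted p = 0.0384).

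All iOL libraries came from day 6, so stage and day are partly confounded. Within day 6, with 1 OPC library a genotype, the log2 change in Eed cKO cells was −0.50 for Gad1, −0.80 for Gad2, −0.51 for Slc32a1, 1.18 for Dlx1 and 1.44 for Dlx2. In control cells it was −0.64 for Gad1, 0.51 for Gad2, 2.12 for Slc32a1, 0.46 for Dlx1 and 1.07 for Dlx2. Each of these has the sign it had over both days. For none of these genes did iOL and OPC libraries of a genotype overlap. The sign within day 6 was therefore fixed in advance and adds no support. Markers of other cells also moved with stage: Hbb-b1, the single red blood cell gene of 6 in the table, was at 0.213 to 1.17 CPM in iOLs and at 562 to 2877 CPM in OPCs. Of 12 pericyte, fibroblast and meningeal markers 11 were held, and Cspg4 among them is also an OPC marker. The other 10 summed to 209 to 360 CPM in iOLs and 54.0 to 113 CPM in OPCs, the opposite direction to Hbb-b1. Their part in the stage changes was not tested.

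**Figure D3:**
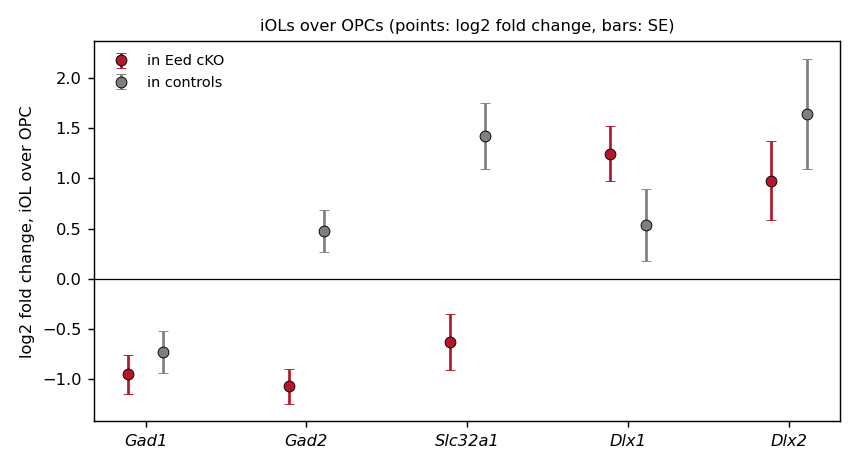
The log2 fold change of iOLs over OPCs (vertical axis) for each gene in Eed cKO and in control cells, with SE as bars. Gad2 and Slc32a1 lie below 0 in Eed cKO cells (−1.07 and −0.62) and above 0 in control cells (0.48 and 1.42), whereas Gad1 lies below 0 and Dlx1 and Dlx2 above 0 in both.

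The Eed cKO effect in iOLs minus that in OPCs was −0.22 ± 0.29 for Gad1, −1.55 ± 0.27 for Gad2, −2.05 ± 0.43 for Slc32a1, 0.71 ± 0.46 for Dlx1 and −0.67 ± 0.68 for Dlx2 (log2 ± SE). These use the selected values and are not tested. Over all genes 0.945% were called higher and 0.886% lower in this difference. With the 6 libraries of day 6 alone, where each OPC group holds 1, Gad1 was at 0.13 and Dlx2 at 0.32, the opposite sign.

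Genes that take up, recycle or sense GABA were called at shares near those over all genes, which were 7.08% higher and 3.51% lower in Eed cKO iOLs and 2.94% higher and 0.303% lower in Eed cKO OPCs. Of 11 uptake and breakdown genes held in the table (13 written), 1 was called higher and 0 lower in Eed cKO iOLs, with a median log2 fold change of 0.12 (−0.0036 over all genes). In Eed cKO OPCs 0 were called by edgeR and by DESeq2, 2 were higher and 0 lower at an unadjusted p under 0.05, and the median was −0.07 (−0.02 over all genes). Without control OPC replicate 2, 2 were called higher. Abat, the enzyme that breaks GABA down, was at −0.48 ± 0.41 in iOLs (adjusted p = 0.576) and −0.25 ± 0.37 in OPCs (adjusted p = 0.682). The gene that rose was Slc38a1, a glutamine transporter (1.10 ± 0.25 in iOLs, adjusted p = 0.0238), and it lost its call without any 1 of the 4 iOL libraries (adjusted p from 0.0671 to 0.176).

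Of 20 receptor and scaffold genes held (26 written), 1 was called higher and 1 lower in Eed cKO iOLs, with a median of 0.06. In OPCs 0 were called by edgeR and 1 higher by DESeq2, 3 were higher and 0 lower at an unadjusted p under 0.05, and the median was 0.04. Without control OPC replicate 2, 2 were called higher. In iOLs Slc12a5, the chloride exporter KCC2 of mature neurons, rose (0.91 ± 0.22, adjusted p = 0.0285), and Slc12a2, the chloride importer NKCC1, fell (−0.56 ± 0.13, adjusted p = 0.0249). Both lost their calls without any 1 of the 4 iOL libraries (adjusted p from 0.105 to 0.185), and Slc12a2 also without Eed cKO OPC replicate 1 (adjusted p = 0.0501). From OPCs to iOLs 13 of the 20 fell in Eed cKO cells and 14 of 20 in control cells, beside 21.8% and 25.3% of all genes, with medians of −1.71 in Eed cKO cells and −1.66 in control cells (−0.0046 and −0.06 over all genes). Gabra3, a receptor subunit, fell by 2.24 ± 0.13 on the log2 scale in Eed cKO cells (adjusted p = 5.02e-06) and by 1.87 ± 0.14 in control cells (adjusted p = 1.32e-05). Of the uptake and breakdown genes 6 of 11 fell in Eed cKO cells and 5 of 11 in control cells, with medians of −0.55 in Eed cKO cells and −1.07 in control cells.

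Several transcription factors of the forebrain GABA lineage were called, more of them higher than lower. Over all genes 7.08% were called higher and 3.51% lower in iOLs, and 2.94% and 0.303% in OPCs. This list and those below were chosen with earlier results of these data known, so their counts are a description. Of 28 held (38 written, Dlx1 and Dlx2 aside), 14 were called higher and 1 lower in Eed cKO iOLs, with a median of 0.83, and 4 higher and 1 lower in Eed cKO OPCs, with a median of 0.37. In iOLs the count called higher was 8 without Eed cKO replicate 1 or either control replicate. In OPCs it was 1 without Eed cKO replicate 1 or 2, 2 without control replicate 1 or either control iOL replicate, 8 without control replicate 2 and 11 without Eed cKO replicate 3. The table holds no gene with a 0 in any library, so a listed gene wholly silent in control cells is outside these counts. All its genes reach 10 counts in 4 or more libraries. A gene under that in control cells is held only if high in Eed cKO cells, which leans the counts to higher calls. Dlx5, Dlx6 and Lhx6 were among the genes written but not held, so they have no values here.

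Sp8, a zinc-finger factor of olfactory bulb interneurons, had 2.29 and 2.80 CPM in Eed cKO iOLs, against 0.170 and 0.167 CPM in control iOLs (log2 3.86 ± 0.49, adjusted p = 0.00178). In OPCs it had 4.94, 3.77 and 4.13 CPM in Eed cKO libraries, against 0.176 and 0.526 CPM in control libraries (3.55 ± 0.40, adjusted p = 0.00157). Sp8 was thus close to 0 in control cells and called at both stages, with 6 counts in control iOLs and 13 in control OPCs in all. Every gene in the table reaches 10 counts in 4 or more libraries, which Sp8 could do only through its Eed cKO libraries. Its presence there therefore favoured a higher call. Its call remained without each library in turn at both stages. Over all 17 alternatives it was kept in 16 in OPCs and in 17 in iOLs.

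In iOLs, Ebf1, a factor of striatal neurons (2.87 ± 0.29, adjusted p = 0.000817), Foxp1 (1.65 ± 0.19, adjusted p = 0.0013), Maf, a factor of cortical interneurons (1.59 ± 0.19, adjusted p = 0.00141), and Meis2 (1.12 ± 0.13, adjusted p = 0.00118) rose and kept their calls without each library. So did Nr2f1 (0.83 ± 0.11, adjusted p = 0.00249). Sp9, a zinc-finger factor related to Sp8, also rose in iOLs (3.01 ± 0.67, adjusted p = 0.0204). It lost its call without Eed cKO replicate 1, Eed cKO replicate 2 or control replicate 2 of the iOLs (adjusted p = 0.103, 0.0786 and 0.0971). In OPCs Sp9 was at 1.56 ± 0.52 and did not pass (adjusted p = 0.126).

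Nkx2-1, which marks the embryonic ventral forebrain where cortical interneurons arise, went the other way in OPCs. It had 1.84, 1.88 and 1.03 CPM in Eed cKO OPCs, against 6.80 and 5.37 CPM in control OPCs (−1.94 ± 0.32, adjusted p = 0.0133). The call was lost without Eed cKO replicate 1 (adjusted p = 0.0504) or control replicate 1 (adjusted p = 0.0737). In iOLs it was at −1.60 ± 0.46 and did not pass (adjusted p = 0.0583), again lower in both Eed cKO libraries. The gene called lower in iOLs was Zeb2, a factor of interneuron migration and of myelination (−0.64 ± 0.18, adjusted p = 0.0491), whose call was lost without any 1 of the 4 iOL libraries (adjusted p from 0.117 to 0.29) and without Eed cKO OPC replicate 1 or 2 (adjusted p = 0.0819 and 0.0775).

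Factors of GABA neurons outside the forebrain were called at both stages. The shares over all genes were 7.08% higher and 3.51% lower in iOLs, and 2.94% higher and 0.303% lower in OPCs. Of 13 held (25 written), 3 were called higher and 1 lower in Eed cKO iOLs (median 0.38), and 4 higher and 0 lower in Eed cKO OPCs (median 0.77), where 1 was lower at an unadjusted p under 0.05 and 1 lower by DESeq2. The count called higher in OPCs was 0 without Eed cKO replicate 1 or 2, 1 without either Eed cKO iOL replicate, 2 without either control iOL replicate and 8 without control replicate 2. En1, a factor of midbrain and spinal cord, rose in iOLs (2.23 ± 0.28, adjusted p = 0.00165) and kept its call without each library. Bhlhe22, which acts in spinal cord and retina, rose in iOLs as well (1.25 ± 0.18, adjusted p = 0.00307). Nkx2-2 fell in iOLs (−1.68 ± 0.25, adjusted p = 0.00377), and it is also a factor of oligodendrocyte differentiation. In OPCs En1 (1.23 ± 0.23, adjusted p = 0.023) and Lbx1 (1.31 ± 0.23, adjusted p = 0.0178), of spinal cord GABA neurons, rose, and each lost its call without Eed cKO OPC replicate 1 (adjusted p = 0.106 and 0.08) or 2 (adjusted p = 0.0939 and 0.0697). En1 also lost it without either Eed cKO iOL library (adjusted p = 0.0525 and 0.0521), and Lbx1 without control OPC replicate 1 (adjusted p = 0.068).

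Of the markers of interneuron and striatal subtypes, Ndnf, Penk and Npy had the highest fold changes among those called in iOLs. The counts stand beside 7.08% of all genes called higher and 3.51% lower in iOLs, and 2.94% and 0.303% in OPCs. Of 19 held (29 written), 7 were called higher and 0 lower in Eed cKO iOLs (median 1.21; 0 lower at an unadjusted p under 0.05 and by DESeq2), and 1 higher and 0 lower in Eed cKO OPCs (median 0.18; 7 higher and 1 lower at an unadjusted p under 0.05, 5 and 0 by DESeq2). Ndnf, a secreted protein of layer 1 interneurons, had 40.3 and 52.8 CPM in Eed cKO iOLs, against 3.18 and 2.44 CPM in control iOLs (log2 4.05 ± 0.38, adjusted p = 0.000638). Ppp1r1b, the striatal phosphatase inhibitor DARPP-32 (3.21 ± 0.34, adjusted p = 0.00104), and Penk, the enkephalin precursor (3.72 ± 0.44, adjusted p = 0.00139), rose in iOLs. Npy, a neuropeptide, had 7.13 and 4.92 CPM in Eed cKO iOLs against 0.511 and 0.444 CPM in control iOLs (3.64 ± 0.49, adjusted p = 0.00223). Htr3a, a serotonin receptor subunit (2.80 ± 0.42, adjusted p = 0.00402), and the potassium channel Kcnc1 (1.22 ± 0.17, adjusted p = 0.00268) also rose, and all 6 kept their calls without each library. The seventh, Elfn1, a synaptic adhesion protein (0.69 ± 0.12, adjusted p = 0.00805), lost it without Eed cKO replicate 2, control replicate 1 or control replicate 2 (adjusted p = 0.067, 0.0513 and 0.0871). The gene called in OPCs was Kcnc1 (0.93 ± 0.16, adjusted p = 0.0138), and its call was lost without Eed cKO replicate 1, Eed cKO replicate 2 or control replicate 1 (adjusted p = 0.0625, 0.0588 and 0.0847). The count called higher in OPCs was 3 without Eed cKO replicate 3 or control replicate 2. Npy in OPCs was at 1.37 ± 0.36 (adjusted p = 0.076). Sst, the somatostatin gene, was at 2.11 ± 0.73 in iOLs (adjusted p = 0.11) and 0.25 ± 0.56 in OPCs (adjusted p = 0.799).

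The calls also took in genes of glutamate neurons. Among all genes 7.08% were called higher and 3.51% lower in iOLs, and 2.94% and 0.303% in OPCs. Of 15 genes of glutamate neurons held (23 written), 8 were called higher and 0 lower in Eed cKO iOLs (median 1.33), and 6 higher and 0 lower in Eed cKO OPCs (median 0.98), with 0 lower at an unadjusted p under 0.05 and by DESeq2 at both stages. The count called higher was 2 in iOLs without Eed cKO replicate 1 or either control replicate and 5 without Eed cKO replicate 2, and 2 or 3 in OPCs without Eed cKO replicate 1 or 2. Neurod1, a proneural factor, had 6.89, 8.02 and 4.54 CPM in Eed cKO OPCs, against 1.05 and 1.47 CPM in control OPCs (2.35 ± 0.31, adjusted p = 0.004). In iOLs it was at 0.81 ± 0.30 and did not pass (adjusted p = 0.131). Slc17a6, the vesicular glutamate transporter VGLUT2 and counterpart of Slc32a1, did not pass in iOLs (2.68 ± 0.82, adjusted p = 0.0722) or OPCs (0.56 ± 0.54, adjusted p = 0.525).

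The lists were also counted over differentiation, where 18.5% of all genes rose and 21.8% fell in Eed cKO cells, and 21% rose and 25.3% fell in control cells. Of the 28 forebrain factors, 5 rose and 9 fell in Eed cKO cells (median −0.18), and 3 rose and 11 fell in control cells (median −0.52). Of the 13 other factors, 3 rose and 0 fell in Eed cKO cells (median 0.15; 1 lower at an unadjusted p under 0.05 and 0 by DESeq2), and 5 rose and 2 fell in control cells (median 0.62). Of the 19 subtype markers, 3 rose and 5 fell in Eed cKO cells (median −0.23), and 1 rose and 11 fell in control cells (median −1.20). Of the 15 glutamate neuron genes, 1 rose and 6 fell in each genotype, with medians of −0.75 in Eed cKO cells and −1.37 in control cells. Over all genes the medians were −0.0046 in Eed cKO cells and −0.06 in control cells. Ndnf rose over differentiation in Eed cKO cells (3.57 ± 0.32, adjusted p = 3.48e-05) and was at −0.45 ± 0.39 in control cells (adjusted p = 0.373).

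Of markers shared by all neurons, 25 were held (26 written, Nefh not analysed here). For comparison, 7.08% of all genes were called higher and 3.51% lower in iOLs, and 2.94% and 0.303% in OPCs. In Eed cKO iOLs 3 were called higher and 2 lower (median 0.31), 7 higher and 2 lower by DESeq2, and 10 higher and 2 lower at an unadjusted p under 0.05. Without Eed cKO iOL replicate 1 the counts were 0 and 0, and without control OPC replicate 1 there were 8 called higher. In Eed cKO OPCs 0 were called by edgeR and 2 higher by DESeq2, with 5 higher and 2 lower at an unadjusted p under 0.05 (median 0.10), with 4 called higher without Eed cKO OPC replicate 3 and 4 called lower without control OPC replicate 2. Their summed level was 3009 to 3014 CPM in Eed cKO iOLs and 2783 to 2985 CPM in control iOLs. In OPCs, where the groups overlapped, it was 2696 to 3524 CPM in Eed cKO and 2504 to 3121 CPM in control libraries. The sum in iOLs joined opposite changes, and genes of high level weigh most in it. Map2 had 725 and 686 CPM in Eed cKO iOLs, against 813 and 785 CPM in control iOLs. Elavl3 had 158 and 152 CPM, against 273 and 274 CPM. Higher were Stmn2 (47.5 and 55.9 against 18.6 and 23.6 CPM) and Nefl (17.2 and 14.9 against 8.52 and 7.38 CPM). Rbfox3, the marker NeuN of mature neurons, was at 0.71 ± 0.28 in iOLs (adjusted p = 0.163) and 0.88 ± 0.26 in OPCs (adjusted p = 0.104), higher in every Eed cKO library. Dcx, a marker of young neurons that OPCs also express, was at −0.37 ± 0.19 in iOLs (adjusted p = 0.282) and 0.53 ± 0.17 in OPCs (adjusted p = 0.124). Tubb3, a neuronal tubulin, rose in iOLs (0.65 ± 0.17, adjusted p = 0.0442) and was at −0.27 ± 0.16 in OPCs (adjusted p = 0.301). Its call held in 3 of the 9 fits without 1 library, with adjusted p up to 0.265 without Eed cKO iOL replicate 2. Oligodendrocyte markers summed to 2255 to 3270 CPM in Eed cKO iOLs, against 9573 to 9708 CPM in control iOLs, and 7 of 12 were called lower, 1 of 12 without Eed cKO iOL replicate 1. Astrocyte markers summed to 10097 to 12151 CPM in Eed cKO iOLs, against 7094 to 7284 CPM in control iOLs, with 1 of 12 called higher and 1 lower. The part of these markers in the values of the 5 genes was not tested.

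**Figure D4:**
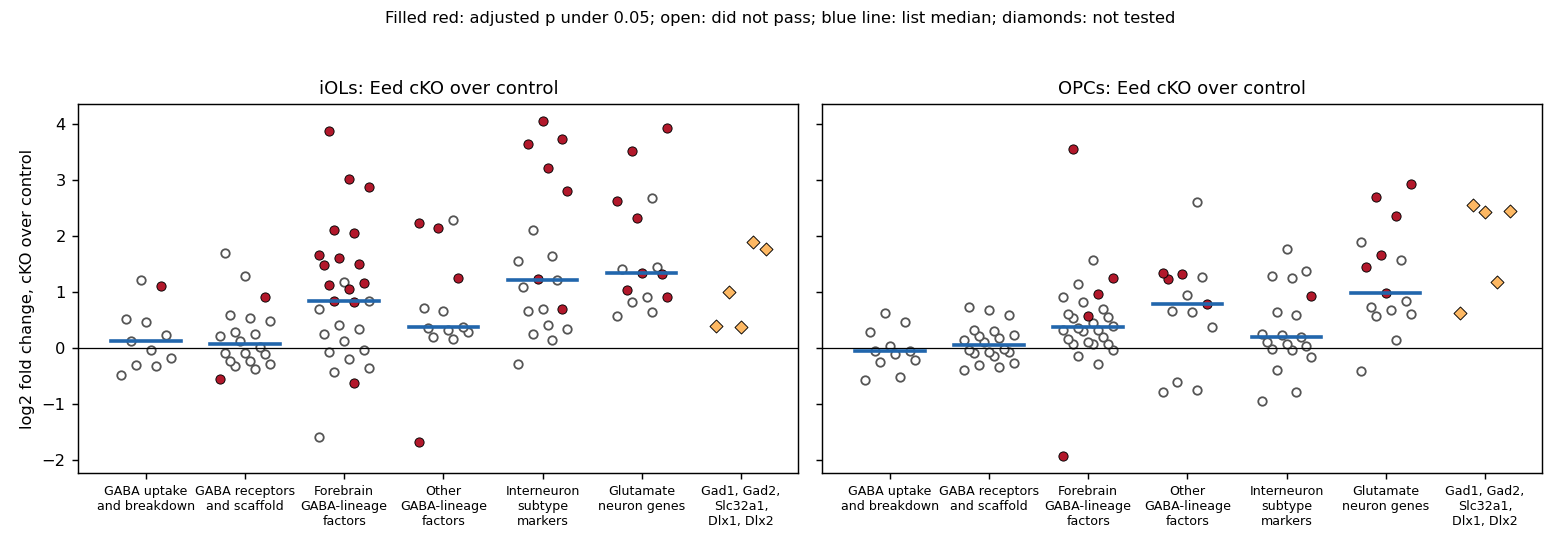
The log2 fold change of Eed cKO over control cells (vertical axis) for every gene of 6 lists, in iOLs and in OPCs, with called genes filled, list medians as blue lines, and Gad1, Gad2, Slc32a1, Dlx1 and Dlx2, in that order from left to right, as diamonds without a test. Medians are near 0 for GABA uptake (0.12 in iOLs) and receptors (0.06), and at 0.83 for forebrain factors, 1.21 for subtype markers and 1.33 for glutamate neuron genes in iOLs.

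All 5 genes lie on mouse chromosome 2 (mm10 coordinates, whole RefSeq gene spans): Gad2 at 22621015 to 22693877, Gad1 at 70561303 to 70602014, Dlx1 at 71528113 to 71533981, Dlx2 at 71543408 to 71546754 and Slc32a1 at 158607260 to 158615747. Dlx1 and Dlx2 are 9.43 kb apart, and Gad1 is 0.926 Mb from Dlx1. Of the 1057 other genes of chromosome 2, 118 (11.2%) were called in Eed cKO iOLs and 35 (3.31%) in Eed cKO OPCs in either direction.

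Few of the nearest genes in the table were called, at shares near those over all genes (10.6% in Eed cKO iOLs and 3.25% in Eed cKO OPCs in either direction). Of 16 flanking genes, 2 on each side of each locus, 0 were called higher and 1 lower in Eed cKO iOLs, where 1 was higher at an unadjusted p under 0.05 while 1 was higher and 1 lower by DESeq2. In Eed cKO OPCs 0 were called by edgeR and 1 higher by DESeq2, with 3 higher and 1 lower at an unadjusted p under 0.05, and log2 fold changes ran from −0.70 (Apbb1ip) to 0.94 (Sp5). Metap1d, 2.92 kb from Dlx1, was at 0.25 ± 0.21 in iOLs (adjusted p = 0.566) and 0.26 ± 0.19 in OPCs (adjusted p = 0.405). The gene called lower in iOLs was Ppp1r16b, near Slc32a1 (−2.21 ± 0.23, adjusted p = 0.000842).

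A noncoding gene that overlaps Slc32a1 was called in OPCs. Gm14204 had 8.03 and 8.88 CPM in Eed cKO iOLs, against 6.13 and 6.33 CPM in control iOLs (log2 0.44 ± 0.23, adjusted p = 0.298). In OPCs it had 4.29, 4.2 and 4.75 CPM in Eed cKO libraries, against 1.11 and 0.684 CPM in control libraries (2.30 ± 0.26, adjusted p = 0.00163). Libraries above 100 ng of RNA were made with a stranded kit and those below with another, the labels do not say which library had which, and no strand setting of the counting is stated there. Reads of overlapping genes may therefore be shared or split, and the values of Slc32a1 and Gm14204 are uncertain to that extent. The same holds for Gad1 and Dlx1, which overlap the noncoding genes Gad1os and Dlx1as.

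**Figure D5:**
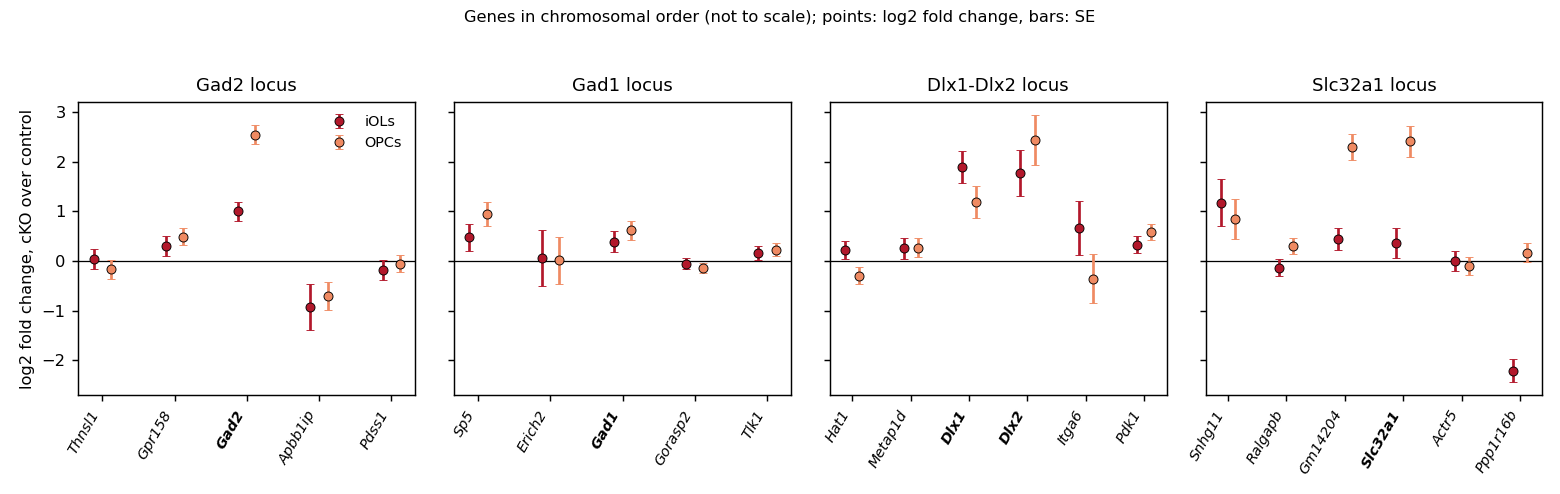
The log2 fold change of Eed cKO over control cells (vertical axis) for genes in chromosomal order around each locus, in iOLs and in OPCs, with SE as bars and the 5 genes in bold. The flanking genes lie between −0.70 and 0.94 in OPCs, while Gm14204, which overlaps Slc32a1, is at 2.30 beside Slc32a1 at 2.41.

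The genes whose levels ran most like these over the 9 libraries were sought among 13397 genes by the root mean square difference of centred log2 CPM, as a description of likeness only. Nearest to the mean of Gad1, Gad2 and Slc32a1 were Capn6 (0.192), Slc16a3 (0.226), Rasef (0.232), Map3k6 (0.238) and Pard6b (0.240), where Gad2 itself differed from that mean by 0.298 and Gad1 by 0.535. Capn6, a calpain-like protein, had 6.49 and 8.78 CPM in Eed cKO iOLs against 5.62 and 4.55 CPM in control iOLs, and 18.7, 18.4 and 11 CPM in Eed cKO OPCs against 4.39 and 3.68 CPM in control OPCs. Nearest to the mean of Dlx1 and Dlx2 were Shh (0.366), Tacr1 (0.395), Ccdc158 (0.403), Dapk1 (0.403) and Thbs2 (0.433). Shh, a secreted ventral patterning signal, had 4.26 and 4.02 CPM in Eed cKO iOLs against 1.25 and 1.5 CPM in control iOLs, and 2.12, 1.72 and 1.96 CPM in Eed cKO OPCs against 0.703 and 1.05 CPM in control OPCs. With a floor of 5 CPM in place of 1, 2 of each 5 genes remained. The floor itself removed the rest, whose highest group means ran from 1.67 CPM (Map3k6) to 4.14 CPM (Shh). Those genes rest on few counts.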

How the data were processed

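The deposited table holds raw read counts per gene, whole numbers with no scaling. Per the submitters' processing notes, the authors used cutadapt 1.14, STAR 2.6.0 and featureCounts (Subread 1.6.2) with mm10. No gene in it has a 0 in any library and all reach 10 counts in 4 or more, and 1 second header line was left out. Chromatin immunoprecipitation samples were not analysed here.

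The tests used edgeR 4.0.16 (R 4.3.3): TMM factors, a filter at a minimum count of 10 (which removed 0 genes), 4 group means over 9 libraries and quasi-likelihood tests, Benjamini-Hochberg adjusted over 13549 genes. Alternatives were DESeq2 1.42.0, other scaling and filters, the postnatal day or replicate number as a term, fewer groups, day 6 alone and each library left out. The script was tested on simulated data. Within-day values and nearest patterns use log2 CPM with a prior count of 2. Gene positions and start-site windows come from RefSeq (GRCm38.p6, the build of mm10), where 99.8% of symbols matched.

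The 5 genes and all lists were chosen with earlier results of these data known. From each list, called genes (at most 6 in full, of the smallest p) and a set of named lineage genes are given, except a few not reported here. The neighbours were the 2 nearest genes in the table on each side of a locus.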

Additional observations from a re-analysis of the deposited data

Results flagged for a closer look

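Over differentiation, every iOL library of Gad2 and Slc32a1 lay below every OPC library in Eed cKO cells and above every OPC library in control cells. For each gene 1 of these directions did not pass edgeR's test, Gad2 in control cells (adjusted p = 0.0825) and Slc32a1 in Eed cKO cells (adjusted p = 0.101, and 0.338 with the day as a term). The change in Eed cKO cells minus that in control cells was −1.55 on the log2 scale for Gad2 and −2.05 for Slc32a1, where it was −2.81 without control OPC replicate 1 and −1.54 without control OPC replicate 2. This difference was not tested, because it is made of the values the genes were selected on. The changes within each genotype share those libraries, so their opposite directions are not independent of the selection.

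In these 7 genes of the lists the Eed cKO effect differed between stages by edgeR's test of the difference itself, iOLs minus OPCs on the log2 scale. Over all genes 0.945% were called higher and 0.886% lower. Of the 28 forebrain factors 5 were called higher and 0 lower, with 10 and 3 at an unadjusted p under 0.05. Of the 19 subtype markers 3 were called higher and 0 lower. These counts include a gene not reported here, and the other lists had 0 calls. The lists were chosen with earlier results known, so the counts are a description. Ndnf had 4.02 ± 0.50 (adjusted p = 0.0109) and Ppp1r1b had 2.57 ± 0.44 (adjusted p = 0.0288). Gsx1, a ventral forebrain factor, had 2.04 ± 0.42 (adjusted p = 0.0468), with 15.6 and 8.88 CPM in Eed cKO iOLs against 2.56 and 3.11 CPM in control iOLs, and 21.5 to 33.4 CPM in Eed cKO OPCs against 22.4 to 28.6 CPM in control OPCs. Ebf1 had 1.97 ± 0.38 (adjusted p = 0.0385) and Maf 1.28 ± 0.25 (adjusted p = 0.0433). Nr2f1 had 0.97 ± 0.15 (adjusted p = 0.0218), and Elfn1, a synaptic adhesion protein of interneurons, had 0.85 ± 0.16 (adjusted p = 0.0385). All 7 were more positive in iOLs. Each lost its call without any 1 of the 4 iOL libraries, with adjusted p from 0.0525 (Ndnf) to 0.201 (Gsx1). All but Ndnf also lost it without Eed cKO OPC replicate 1 or 2 (adjusted p from 0.0737 to 0.128), and Ebf1 and Gsx1 without control OPC replicate 1 (adjusted p = 0.0518 and 0.0732). Each kept its sign in all 16 alternatives.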

How the results depend on the processing

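With 2 or 3 libraries a group and 5 residual degrees of freedom, the number of called genes moved with the libraries used, and in OPCs control replicate 2 and Eed cKO replicate 3 moved it most. These were the 2 OPC libraries of day 6, so a single library and its day cannot be told apart here. Dlx1 and Dlx2 rest on few counts in control cells. The values of the 5 genes in the Eed cKO comparisons kept their sign in all 17 alternatives. No Eed cKO library overlapped the controls of its stage, so leaving libraries out could not turn the sign. This adds no support for the selected values. In controls, Slc32a1 and Dlx2 lost their stage calls with only the groups compared (adjusted p = 0.0644 and 0.0778), and Dlx2 with day 6 alone (0.104). Gad2 gained its call in controls with the day as a term (0.0189). In Eed cKO cells Slc32a1 gained it with only the groups compared (0.00903) and Dlx2 with day 6 alone (0.0309). With day 6 alone the stage difference of the Eed cKO effect reversed for Gad1 (0.13) and Dlx2 (0.32). The cause was not tested.

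Called genes in Eed cKO OPCs numbered 440 (90.7% higher). They were 190 with only the groups compared, 1382 with the day as a term (61.4% higher), 66 with day 6 alone, 1006 with DESeq2 (76.2% higher) and 164 to 3935 without 1 library; without control replicate 2 there were 3935 (47.3% higher) and without Eed cKO replicate 3 there were 2144 (62.2% higher). In Eed cKO iOLs they numbered 1434, with 3699, 2680 and 3728 for only the groups compared, the day as a term and day 6 alone, and 349 to 2236 without 1 library. Over differentiation they numbered 5461 in Eed cKO cells (3080 to 6883 without 1 library) and 6270 in controls (4057 to 7236). For the stage difference they numbered 248, with 1202, 416 and 823 for the day as a term, day 6 alone and DESeq2, and 2 to 2156 without 1 library. RLE size factors, no filter and a floor of 1 CPM changed none of these counts by over 1.5 times.

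Replicate numbers recur across groups, and the labels do not say that they pair samples. Deviations of same-numbered libraries correlated at 0.239 between genotypes in iOLs, at 0.313 (number 1) and −0.352 (number 2, of different days) in OPCs, and at −0.0843 to 0.0426 across stages. With 2 libraries a group these values are partly mirrored and settle nothing, so libraries were treated as sharing only a number. With the replicate number as a block, 1941 genes were called in OPCs (63.0% higher), 1666 in iOLs, 5794 and 6673 over differentiation in Eed cKO and control cells, and 1049 in the stage difference.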
